A study of Homo sapiens with 12 samples.

Results

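The mevalonate arm enzymes are the proteins that turn acetyl-CoA into squalene and geranylgeranyl diphosphate. They were listed by name, for their place in the pathway: 9 genes of the 19251 in the expression table, namely ACAT2, HMGCS1, MVK, PMVK, MVD, IDI1, FDPS, GGPS1 and FDFT1. RNA sequencing was done on 12 libraries from 2 established human ovarian cancer lines, to ask what ovarian cancer ascites, the fluid that collects in the abdomen, does to their transcripts. CAOV3 is labelled high grade serous and TOV21G clear cell; both are given as epithelial and as WT in genotype, and both were grown in DMEM with 10% fetal bovine serum. In each line 3 libraries came from cells with no treatment (control) and 3 from cells kept for 16 h with ascites at 10% of the medium. No vehicle or other fluid is described for the controls. The labels do not say how many patients the ascites came from or whether the 3 libraries of a group came from separate cultures. Each p-value therefore sets a change against the spread between these libraries only. In the limma fits that spread is pooled over the 4 groups, as is each SE, unless a line is said to be fitted alone.

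In this pathway acetyl-CoA is built up to HMG-CoA and mevalonate, which is phosphorylated and decarboxylated to isoprene units. The units are joined to farnesyl diphosphate, a branch point that leads to squalene and cholesterol, or to geranylgeranyl diphosphate, the lipid that anchors many small GTPases to membranes. Many of the genes are switched on by the sterol-regulated transcription factor SREBP-2, and their transcription falls when cells take up enough cholesterol. Ovarian tumour cells shed into the abdomen live in ascites.

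Every one of the 9 transcripts was read well: the deposited normalised read count (reads divided by a size factor for the library) was at least 100 in each of the 12 libraries, and all 9 passed the filter on low values, which 17616 genes passed. Libraries held 26697609 to 34491304 reads. The epithelial markers EPCAM, KRT8, KRT18 and KRT19 were expressed in both lines, but PAX8 was near the lower limit in CAOV3 (18.2 to 25.6 normalised reads over 6 libraries) and CDH1 in TOV21G (6.29 to 17.3). Of 7 leukocyte markers, 2 (CD14 and LYZ) were analysed here; their summed level was 117 to 134 in CAOV3 controls and 101 to 125 with ascites, and 8.39 to 13.0 and 11.6 to 20.4 in TOV21G, where LYZ was at 0 in all 6 libraries. The summed epithelial markers were higher with ascites, at 153356 to 162654 against 131735 to 132827 in CAOV3 and at 19705 to 20446 against 18337 to 19220 in TOV21G, but the members were mixed. In CAOV3, KRT8 and KRT18 rose (limma, adjusted p = 0.0231 and 0.0102), while CDH1 had a log2 change of -0.64 that limma did not call (adjusted p = 0.438) and edgeR, DESeq2 and voom did. In TOV21G limma called none, 5 of the 6 had negative estimates, with a median log2 change of -0.066, and the positive one was PAX8 (0.33; adjusted p = 0.161 by limma, and called by edgeR, DESeq2 and voom). Of 4 fibroblast markers 3 were analysed here (COL1A1, COL1A2 and PDGFRA); their sum was 12543 to 13079 in TOV21G controls and 11260 to 11688 with ascites, without overlap, and 1240 to 1362 and 1294 to 1356 in CAOV3. COL1A2 carried most of the TOV21G sum and had a log2 change of -0.17 there (limma, adjusted p = 0.836; 0.0178 with DESeq2 and 0.0398 with voom). In CAOV3 limma called COL1A2 lower, at 0 to 2.97 normalised reads in all 6 libraries, near no reads. The part of these markers in the results below was not tested. In these bulk libraries fewer cells of a type and less RNA per cell cannot be told apart.

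Because several of the enzymes changed together, the promoters were read for the letters of elements known from sterol-regulated genes: CCAAT, the site of NF-Y, and TCACNCCA, the core of a sterol regulatory element. RefSeq windows (GRCh38.p14, from 250 bases before to 50 after the start) were read for 7 of the 9 genes. ACAT2 had no window in the sources used here, and FDFT1 was left out of the search, so both are named only. The 250 bases before the start are printed for 3 genes that were lower with ascites in at least 1 line (MVK, IDI1 and HMGCS1) and for the 2 that did not pass the test in either line and hold no CCAAT (PMVK and GGPS1). Each runs 5′ to 3′ on the strand of the gene, with matches to CCAAT on either strand (ATTGG when read on the other) and to TCACNCCA in capitals. The MVK stretch is chr12:109573544-109573793 (plus strand), IDI1 chr10:1049120-1049369 (minus), HMGCS1 chr5:43313413-43313662 (minus), PMVK chr1:154936720-154936969 (minus) and GGPS1 chr1:235326966-235327215 (plus).
MVK: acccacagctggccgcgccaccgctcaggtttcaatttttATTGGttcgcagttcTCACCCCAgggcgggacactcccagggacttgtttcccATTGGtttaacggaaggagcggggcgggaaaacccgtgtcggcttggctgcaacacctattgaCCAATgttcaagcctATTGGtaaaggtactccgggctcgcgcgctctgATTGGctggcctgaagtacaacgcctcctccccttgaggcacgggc
IDI1: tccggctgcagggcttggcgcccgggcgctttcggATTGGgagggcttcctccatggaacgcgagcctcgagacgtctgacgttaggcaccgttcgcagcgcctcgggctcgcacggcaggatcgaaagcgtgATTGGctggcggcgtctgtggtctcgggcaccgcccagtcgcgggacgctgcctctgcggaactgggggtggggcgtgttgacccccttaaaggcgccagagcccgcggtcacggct
HMGCS1: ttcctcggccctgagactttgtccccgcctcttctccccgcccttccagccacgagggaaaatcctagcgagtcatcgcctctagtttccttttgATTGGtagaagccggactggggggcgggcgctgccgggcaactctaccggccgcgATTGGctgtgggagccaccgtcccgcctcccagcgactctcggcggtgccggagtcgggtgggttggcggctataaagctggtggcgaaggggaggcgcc
PMVK: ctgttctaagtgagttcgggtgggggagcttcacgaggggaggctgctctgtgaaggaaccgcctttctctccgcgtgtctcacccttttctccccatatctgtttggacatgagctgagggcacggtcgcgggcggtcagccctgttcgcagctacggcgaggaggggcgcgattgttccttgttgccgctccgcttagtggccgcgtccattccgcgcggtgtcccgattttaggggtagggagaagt
GGPS1: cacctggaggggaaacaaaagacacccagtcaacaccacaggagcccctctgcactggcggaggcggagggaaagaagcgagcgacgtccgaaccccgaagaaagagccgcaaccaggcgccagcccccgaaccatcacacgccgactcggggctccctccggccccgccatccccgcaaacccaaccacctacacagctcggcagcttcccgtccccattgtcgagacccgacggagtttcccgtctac

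The MVK window held 5 CCAAT matches, and those of MVD and FDPS held 3 each. The windows of HMGCS1 and IDI1 held 2 each; in HMGCS1 they began 155 and 100 bases before the start, and in IDI1 215 and 117 bases before it. PMVK and GGPS1 had none. A match did not go with a call in every case, since MVD and FDPS did not pass the test in either line. In all, 5 of 7 windows had at least 2 matches, against 10.8% of 35116 RefSeq windows of the same length. TCACNCCA was found in MVK alone, 195 bases before the start (3.95% of all windows), and its longer form TCACNCCAC in none of the 7 (1.13%). The GC box GGGCGG, a common promoter element, was in 6 of 7 windows (45.0% of all windows). These letters are matches and not shown sites. RefSeq gives other windows for 3 of these genes, and the counts depend on which start is read: the other window of HMGCS1 held 0 CCAAT, those of IDI1 held 3 and 0, and those of GGPS1 held 1 and 0.

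In CAOV3, 5 of the 9 enzymes fell with ascites: ACAT2, HMGCS1, MVK, IDI1 and FDFT1, with levels 0.664 (MVK) to 0.853 (ACAT2) times the control. None rose, and PMVK, MVD, FDPS and GGPS1 did not pass the test. The background is that 1.1% of the 17616 genes tested were lower at an adjusted p under 0.05 and 1.73% differed in either direction (limma on log2 of the value plus 1, adjusted by Benjamini-Hochberg over all genes tested). In TOV21G, 4 of the 9 fell (ACAT2, HMGCS1, IDI1 and FDFT1, at 0.705 (IDI1) to 0.84 (HMGCS1) times the control), against 0.267% of genes lower and 0.409% called in either direction, and again none rose. The 4 that fell in TOV21G are among the 5 that fell in CAOV3. The median log2 change of the 9 was -0.25 in each line, beside medians over all genes tested of -0.0021 in CAOV3 and -0.018 in TOV21G. The 2 comparisons share no library, though the fit pools their spread.

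**Figure D1:**
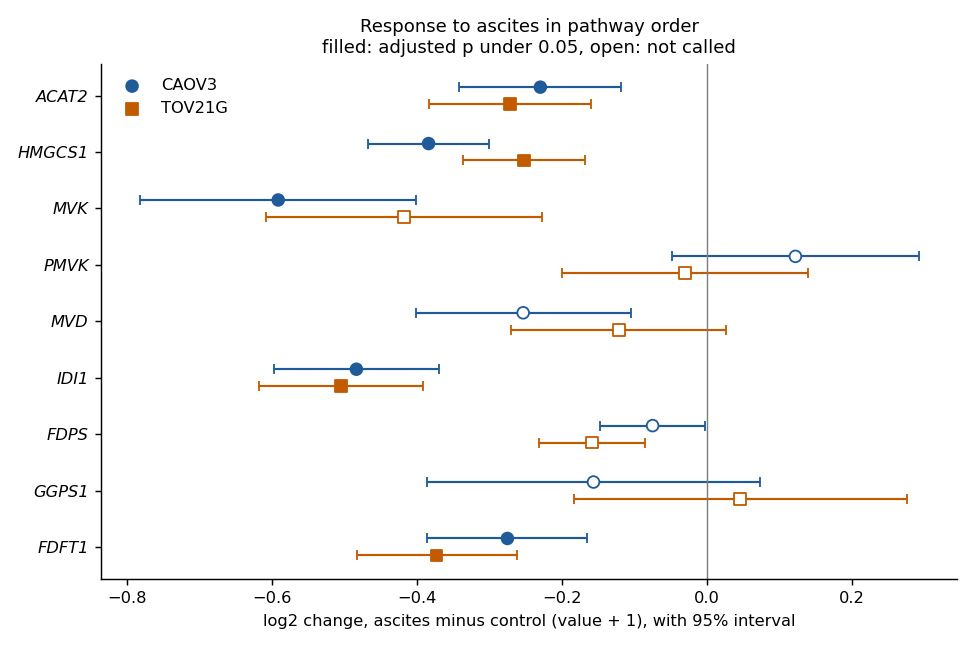
Log2 change with ascites (horizontal axis, ascites minus control on the log2 of value plus 1 scale, with 95% intervals) for the 9 enzymes in pathway order, CAOV3 as circles and TOV21G as squares; filled symbols have an adjusted p under 0.05 by limma. The points for ACAT2, HMGCS1, IDI1 and FDFT1 are filled in both lines, MVK in CAOV3 alone, and PMVK and GGPS1 lie around 0.

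The pathway opens with ACAT2, the cytosolic thiolase that joins acetyl-CoA into acetoacetyl-CoA (ENSG00000120437, chromosome 6, 159760328 to 159779055 in GRCh38, plus strand). Its normalised read count was 1693, 1711 and 1731 in CAOV3 controls and 1428, 1467 and 1486 with ascites. In TOV21G it was 1486, 1309 and 1307 in controls and 1107, 1186 and 1102 with ascites. In both lines every ascites library lay below every control library. The log2 change was -0.23 ± 0.05 (SE; limma, adjusted p = 0.0424) in CAOV3 and -0.27 ± 0.05 (adjusted p = 0.0427) in TOV21G. Both calls sit close to the threshold: with 1 library left out at a time, ACAT2 kept its call in 3 of 12 fits in CAOV3 (highest adjusted p 0.155, without CAOV3 ascites 1) and in 2 of 12 in TOV21G (highest adjusted p 0.168, without TOV21G ascites 3). ACAT2 also shares exon sequence with 3 genes on the opposite strand. SOD2-OT1 shares 1458 exon bases and SOD2 1141, and neither was matched in the expression table, so their changes were not read. The other gene is TCP1, a chaperonin subunit that shares 397 exon bases with ACAT2. It is read far more strongly (mean 14525 normalised reads) and had log2 changes of 0.08 in CAOV3 and -0.02 in TOV21G. Whether the counting used strand is not given in the sources used here.

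HMGCS1, the cytosolic synthase that adds a further acetyl unit to make HMG-CoA (ENSG00000112972, chromosome 5, 43289395 to 43313512, minus strand), had the highest counts of the 9 in CAOV3. It stood at 9295, 8989 and 9492 normalised reads in CAOV3 controls and at 7187, 6953 and 7147 with ascites. In TOV21G the values were 1944, 1930 and 1969 in controls and 1676, 1679 and 1553 with ascites. The groups were apart in both lines, and the gap in CAOV3 was many times the spread within a group. The log2 change was -0.38 ± 0.04 (SE; limma, adjusted p = 0.000175) in CAOV3 and -0.25 ± 0.04 (adjusted p = 0.0135) in TOV21G. The CAOV3 call was kept in all 12 fits with 1 library left out. In TOV21G it was kept in 11, and lost without TOV21G control 3 (adjusted p = 0.0856).

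Mevalonate is then phosphorylated by MVK (ENSG00000110921, chromosome 12, 109573255 to 109598117, plus strand), whose promoter above carries the 5 CCAAT matches. Its counts were 531, 568 and 506 in CAOV3 controls and 341, 388 and 337 with ascites. In TOV21G they were 238, 250 and 210 in controls and 174, 164 and 183 with ascites. Ascites libraries were below control libraries in both lines, without overlap. MVK had the largest estimate of the 9 in CAOV3, a log2 change of -0.59 ± 0.09 (SE; limma, adjusted p = 0.0033). In TOV21G the estimate was -0.42 ± 0.09 with an adjusted p of 0.0775, which misses the threshold; of 11 alternatives beside leaving out 1 library, 1 passed (DESeq2 on the recovered reads, 0.0316), while edgeR gave 0.11, voom 0.183 and TOV21G fitted alone 0.513. MMAB, an enzyme of vitamin B12 metabolism that lies next to MVK on the opposite strand and shares 4.72% of its exon bases, fell in CAOV3 (log2 change -0.50, adjusted p = 0.0019 by limma) and had a log2 change of -0.21 in TOV21G (adjusted p = 0.356).

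PMVK, which adds the next phosphate (ENSG00000163344, chromosome 1, 154924734 to 154936991, minus strand), was not lower with ascites. CAOV3 controls held 705, 764 and 690 normalised reads and CAOV3 ascites libraries 825, 724 and 802. TOV21G controls held 1625, 1323 and 1382 and ascites libraries 1366, 1511 and 1354. The groups overlapped in both lines. The 95% interval of the log2 change ran from -0.05 to 0.29 in CAOV3 and from -0.20 to 0.14 in TOV21G (limma, adjusted p = 0.569 and 0.944). A fall of the size seen for HMGCS1, MVK or IDI1 in CAOV3 lies outside the first of these intervals, and one of the size seen for IDI1 or FDFT1 in TOV21G outside the second.

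MVD decarboxylates the product to isopentenyl diphosphate (ENSG00000167508, chromosome 16, 88651935 to 88663161, minus strand). Its counts in CAOV3 were 1251, 1423 and 1344 in controls and 1179, 1030 and 1163 with ascites, so that the groups did not overlap. In TOV21G they were 1021, 967 and 921 and then 879, 953 and 843, and overlapped. The log2 change was -0.25 ± 0.07 in CAOV3 (SE; limma, adjusted p = 0.102) and -0.12 ± 0.07 in TOV21G (adjusted p = 0.615). The CAOV3 value passed in 3 of 9 alternatives, with an adjusted p of 0.0297 by edgeR, 0.0205 by DESeq2 and 0.0309 by voom, and not with CAOV3 fitted alone (0.151).

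IDI1 converts isopentenyl diphosphate to dimethylallyl diphosphate, the starter unit of chain building (ENSG00000067064, chromosome 10, 1039152 to 1049170, minus strand). It had 2732, 2605 and 2939 normalised reads in CAOV3 controls and 2041, 1862 and 2014 with ascites. TOV21G controls had 2023, 1858 and 1980, and ascites libraries 1353, 1409 and 1367. Its fall was close to equal in the 2 lines, to 0.715 and 0.705 times the control, and no library of one group reached the range of the other. The log2 change was -0.48 ± 0.05 in CAOV3 (SE; limma, adjusted p = 0.000311) and -0.50 ± 0.05 in TOV21G (adjusted p = 0.000694). Of the 9 enzymes, IDI1 alone kept its call in all 12 fits with 1 library left out in both lines. An antisense RNA, IDI2-AS1, shares 14.8% of its exon bases and was read at a mean of 5.22.

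FDPS joins the isoprene units to farnesyl diphosphate and is the target of the bisphosphonate drugs used in bone disease (ENSG00000160752, chromosome 1, 155308748 to 155320666, plus strand). It stood at 3468, 3389 and 3511 in CAOV3 controls and 3209, 3292 and 3345 with ascites. In TOV21G it was 3944, 3835 and 3761 and then 3447, 3480 and 3409. The groups were apart in each line but by little. The log2 change was -0.07 ± 0.03 in CAOV3 (SE; limma, adjusted p = 0.372), where its 95% interval ran from -0.15 to -0.0018, and -0.16 ± 0.03 in TOV21G (adjusted p = 0.0796). In TOV21G 1 of 11 alternatives passed (DESeq2, adjusted p = 0.0182), while edgeR gave 0.143, voom 0.0754 and TOV21G fitted alone 0.341. FDPS has many processed pseudogenes, but the 1 that is listed in the table reached at most 9.94 normalised reads. RUSC1-AS1, an antisense RNA, shares 18.6% of the FDPS exon bases and was read at a mean of 40.6.

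**Figure D2:**
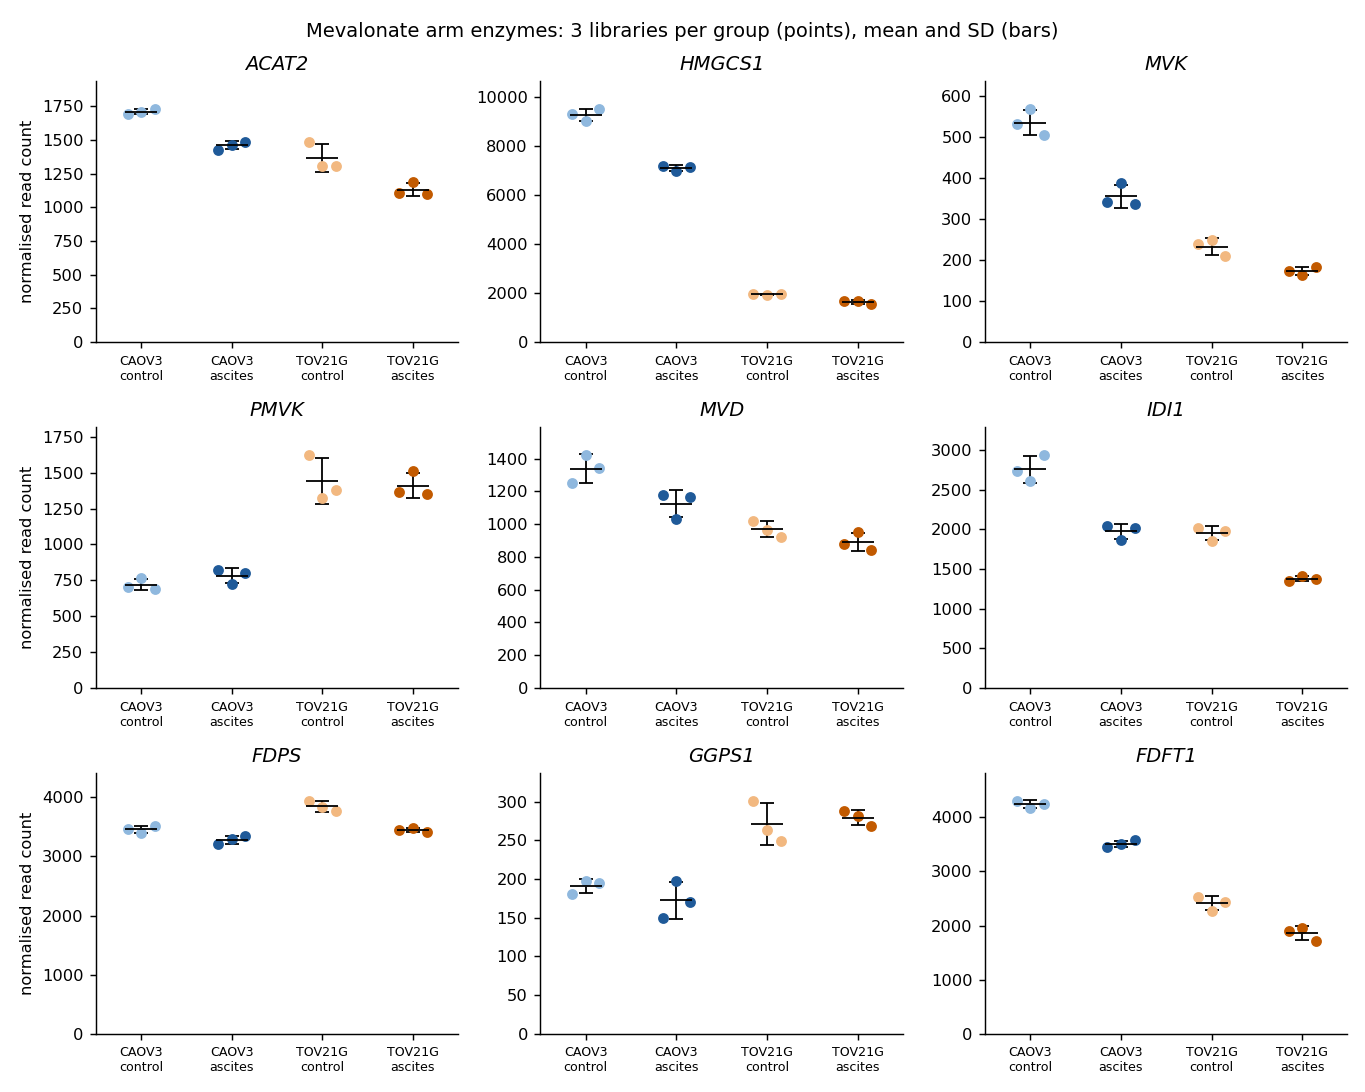
Normalised read counts (vertical axis, from 0) of the 9 enzymes in each of the 4 groups; points are the 3 libraries and bars the mean with its SD. For ACAT2, HMGCS1, MVK, IDI1, FDPS and FDFT1 the ascites points lie below the control points in both lines, for FDPS by little. Those of PMVK and GGPS1 overlap in both lines, and those of MVD in TOV21G alone.

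At the branch, GGPS1 extends farnesyl diphosphate to geranylgeranyl diphosphate (ENSG00000152904, chromosome 1, 235327350 to 235344532, plus strand), and was the least abundant of the 9 in CAOV3. Its counts were 180, 198 and 195 in CAOV3 controls and 150, 197 and 170 with ascites. In TOV21G they were 301, 263 and 249 in controls and 288, 281 and 268 with ascites. Controls and ascites libraries overlapped in both lines, and the log2 changes were -0.16 ± 0.11 (SE; limma, adjusted p = 0.595) and 0.05 ± 0.11 (adjusted p = 0.929). The 95% intervals, from -0.39 to 0.07 and from -0.18 to 0.28, are the widest of the 9. GGPS1 shares 37.3% of its exon bases with TBCE, a tubulin chaperone gene on the same strand that was read at a mean of 63.4, so its counts carry that uncertainty.

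FDFT1 takes the other branch and joins a pair of farnesyl diphosphates into squalene, the first step given over to sterols (ENSG00000079459, chromosome 8, 11795573 to 11839309, plus strand). It had 4308, 4177 and 4250 normalised reads in CAOV3 controls and 3452, 3499 and 3574 with ascites. In TOV21G it had 2524, 2273 and 2431 in controls and 1907, 1960 and 1719 with ascites. Ascites libraries were below control libraries without overlap in both lines. The log2 change was -0.27 ± 0.05 in CAOV3 (SE; limma, adjusted p = 0.0144) and -0.37 ± 0.05 in TOV21G (adjusted p = 0.0056). With 1 library left out, the CAOV3 call was kept in 8 of 12 fits (highest adjusted p 0.0654, without CAOV3 ascites 1) and the TOV21G call in all 12.

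The groups did not overlap, with ascites lower, for 7 of the 9 enzymes in CAOV3 (12.8% of all genes tested) and for 6 of 9 in TOV21G (6.99%). All 4 calls in TOV21G rest on a spread shared with the CAOV3 libraries. With each line fitted alone, the SE of ACAT2 was 0.021 in CAOV3 and 0.064 in TOV21G. It was 0.026 and 0.036 for HMGCS1, 0.020 and 0.066 for FDFT1, and 0.058 and 0.039 for IDI1. When TOV21G was fitted alone none of the 4 passed (limma, adjusted p = 0.0616 for IDI1, 0.341 for HMGCS1, 0.399 for FDFT1 and 0.535 for ACAT2), and over all genes 2 were lower and 6 higher in that fit. Among TOV21G libraries, control 1 resembled ascites 2, and control 2 resembled ascites 3, in how they departed from their group means. Without the first of these pairs all 4 calls were kept. Without the second, IDI1, HMGCS1 and FDFT1 kept theirs and ACAT2 did not (limma, adjusted p = 0.115). Leaving out these pairs was chosen after seeing the data.

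**Figure D3:**
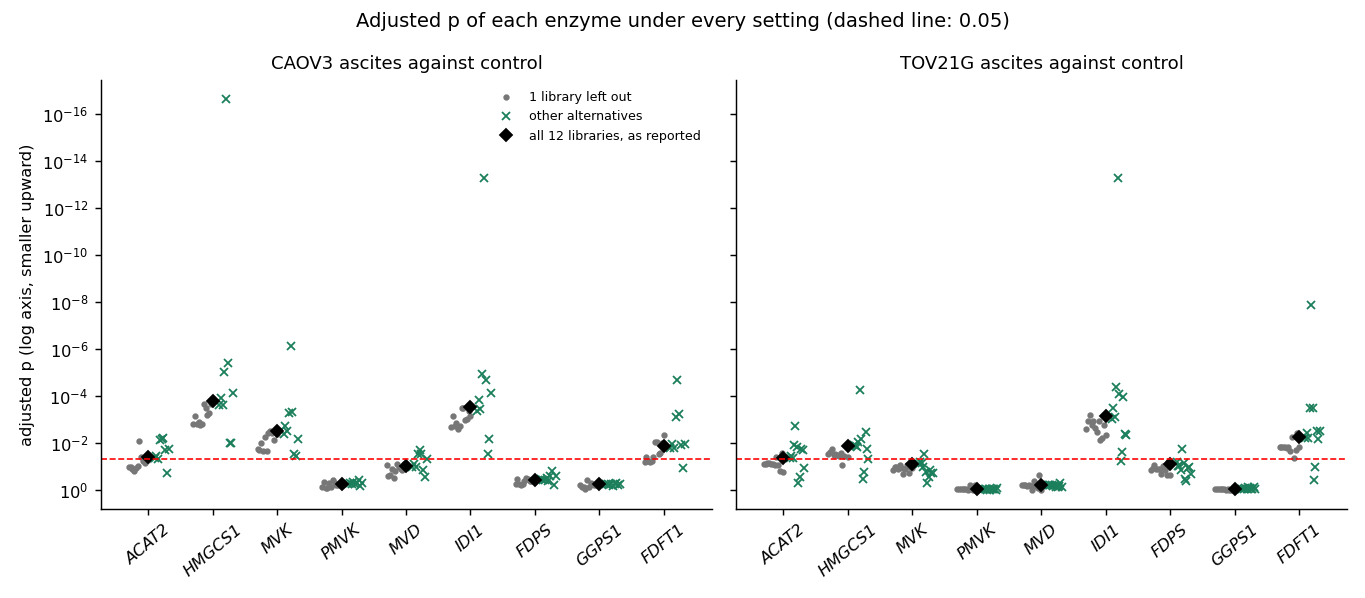
Adjusted p by limma or the named tool (vertical axis, log scale, smaller values upward) of each enzyme in CAOV3 (left) and TOV21G (right): diamonds are the values reported, dots the 12 fits with 1 library left out, crosses the other alternatives, and the dashed line 0.05. All dots of IDI1 lie past the line in both panels, while most of those of ACAT2 do not.

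Whether the lines differed in their response was tested as an interaction in the same fit. None of the 9 enzymes passed (limma), against 0.545% of all genes tested, and edgeR, DESeq2 and voom also called 0. At an unadjusted p under 0.05, which 11.9% of all genes tested reached, there was 1, HMGCS1, whose log2 fall was smaller in TOV21G by 0.13 (95% interval 0.01 to 0.25, unadjusted p = 0.0321, adjusted p = 0.387). For IDI1 the difference was -0.02 with an interval from -0.18 to 0.14. For MVK, called in CAOV3 alone, it was 0.17 with an interval from -0.10 to 0.44, so a difference between the lines was not shown for it.

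The ratio of FDFT1 to GGPS1, each per kilobase of exon, compares the 2 enzymes that compete for farnesyl diphosphate and does not move with the scaling of a library. As a log2 ratio it was 4.13, 3.95 and 4.0 in CAOV3 controls and 4.08, 3.70 and 3.95 with ascites. In TOV21G it was 2.62, 2.66 and 2.84 in controls and 2.28, 2.35 and 2.23 with ascites. FDFT1 reads per kilobase of exon therefore stood 16.3 times as high as those of GGPS1 in CAOV3 controls and 6.52 times in TOV21G controls. The length counts every exon annotated for a gene, and GGPS1 shares 37.3% of its exon bases with TBCE. These folds therefore need not equal the ratio of the transcripts. In TOV21G every ascites library lay below every control library, with a mean difference of -0.42 on the log2 scale. This has an exact two-sided permutation p of 0.1, the smallest that 3 against 3 libraries can give. In CAOV3 the difference was -0.12, the groups overlapped, and the exact permutation p was 0.4. The difference between the lines in this ratio's response was not tested.

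**Figure D4:**
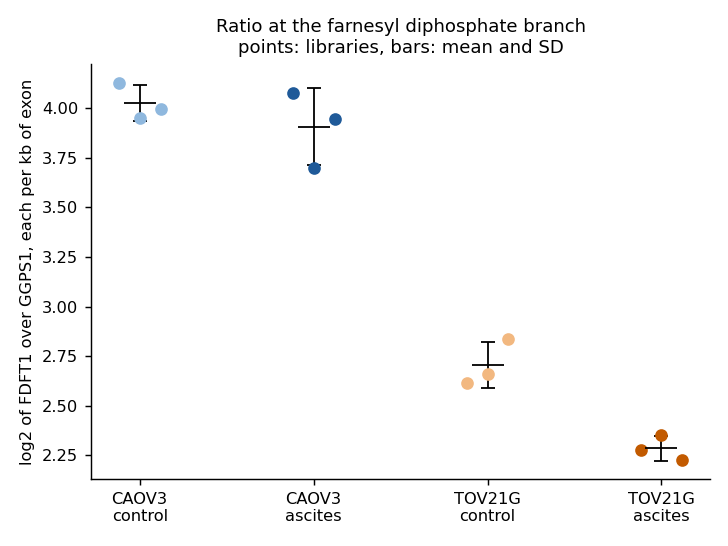
Log2 of FDFT1 over GGPS1, each per kilobase of exon (vertical axis), in the 4 groups; points are libraries and bars the mean with its SD. The 3 TOV21G ascites libraries, at 2.23 to 2.35, lie below the 3 TOV21G controls, at 2.62 to 2.84, and both lie below all CAOV3 libraries.

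Before any ascites the lines already differed in the make-up of the arm. All 9 enzymes differed between untreated TOV21G and untreated CAOV3 by limma, 6 lower and 3 higher in TOV21G, in a comparison in which 82.2% of all genes tested were called (41.4% lower and 40.8% higher), so the count itself is near the background. The sizes were unequal. HMGCS1 was lower in TOV21G by far the most, with a log2 difference of -2.25 (limma, adjusted p = 6.89e-15), a level 0.21 times that of CAOV3. MVK followed at -1.20 (adjusted p = 1.75e-08) and FDFT1 at -0.82 (adjusted p = 3.01e-09). IDI1, MVD and ACAT2 were lower by smaller amounts, with log2 differences of -0.50, -0.47 and -0.33. In the other direction, PMVK was higher in TOV21G by 1.00 (adjusted p = 3.68e-08), GGPS1 by 0.50 (adjusted p = 0.000643) and FDPS by 0.15 (adjusted p = 0.0008).

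Levels of different enzymes were set side by side per kilobase of exon, where the length counts every exon annotated for the gene in GENCODE. That length can exceed the length of the transcripts present, so the order of the enzymes can depend on the annotation. Per kilobase of exon, CAOV3 controls held 1969 ± 53.9 normalised reads of HMGCS1 (SD, n = 3), then FDPS at 930 ± 16.6, FDFT1 at 816 ± 12.7, IDI1 at 635 ± 38.8, PMVK at 562 ± 30.5, ACAT2 at 398 ± 4.38, MVD at 284 ± 18.3, MVK at 82.6 ± 4.83 and GGPS1 at 50.2 ± 2.46. No 2 neighbours in that order overlapped between libraries. In TOV21G controls PMVK came first at 1128 ± 125 per kilobase, and overlapped with FDPS at 1035 ± 24.8. FDFT1 (463 ± 24.5) and IDI1 (450 ± 19.7) also overlapped, and HMGCS1 came next at 414 ± 4.15. ACAT2 (318 ± 23.9), MVD (206 ± 10.7), GGPS1 (71.2 ± 7.06) and MVK (35.9 ± 3.15) closed the order without overlap. The enzyme at the top in CAOV3 was thus in the middle in TOV21G, and MVK and GGPS1 changed places at the bottom. With ascites the means of the 3 highest kept their order in each line, but in TOV21G the third, FDFT1 (358 ± 24.4), overlapped with HMGCS1 (348 ± 15.2). Below them IDI1 lost a place in both lines. In CAOV3 with ascites PMVK stood above it, at 612 ± 41.4 against 454 ± 22.3 without overlap, and in TOV21G HMGCS1 did, with IDI1 at 317 ± 6.71.

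**Figure D5:**
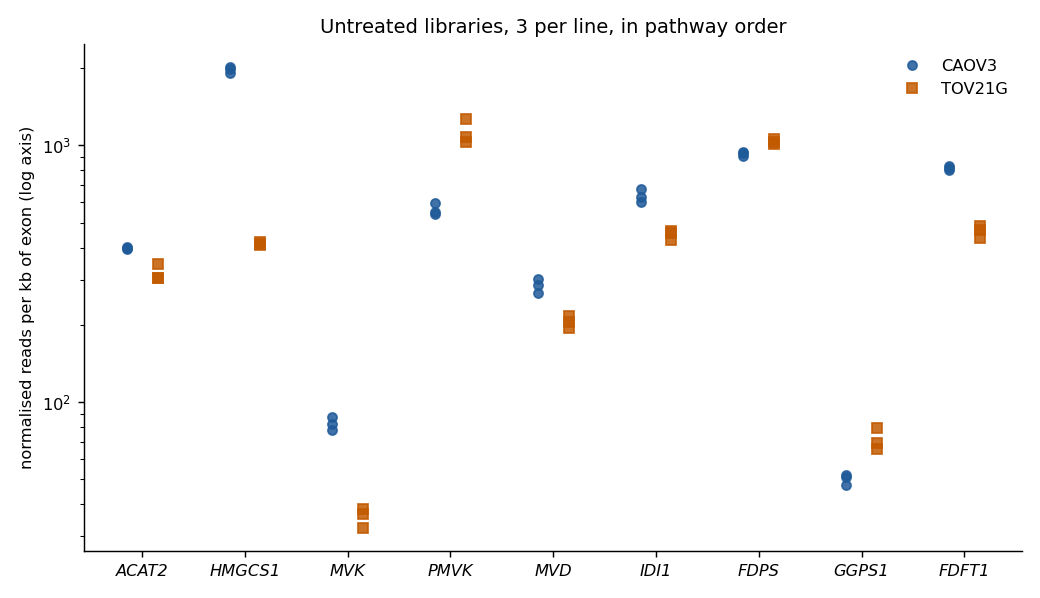
Normalised reads per kilobase of exon (vertical axis, log scale) of the 9 enzymes in the 3 untreated libraries of each line, in pathway order, CAOV3 as circles and TOV21G as squares. HMGCS1 is at 1969 in CAOV3 and 414 in TOV21G on average, while PMVK, FDPS and GGPS1 are higher in TOV21G.

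The steps after squalene moved the same way in part. Of 11 enzymes from squalene to cholesterol, 4 fell in CAOV3 and 3 in TOV21G by limma, beside 1.1% and 0.267% of all genes tested, and none rose. SQLE, which oxidises squalene, fell in both lines: it stood at 2197, 2224 and 2468 in CAOV3 controls and 1751, 1733 and 1765 with ascites, and at 2450, 2204 and 2313 and then 1846, 1951 and 1683 in TOV21G. Its log2 change was -0.39 (adjusted p = 0.0042) and -0.35 (adjusted p = 0.026). MSMO1, a sterol methyl oxidase, also fell in both, by limma, with log2 changes of -0.45 (adjusted p = 0.00102) and -0.34 (adjusted p = 0.0198). LSS, which closes the sterol rings, and TM7SF2, a sterol reductase, fell in CAOV3 with log2 changes of -0.33 and -0.27 (limma, adjusted p = 0.0065 and 0.0314). DHCR7, the last reductase of cholesterol synthesis, fell in TOV21G (limma, log2 change -0.38, adjusted p = 0.0304).

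Among 7 genes of the SREBP machinery, the same 3 fell in both lines, again beside 1.1% and 0.267% of all genes tested. They are SREBF1 and SREBF2, which encode the transcription factors, and INSIG1, which holds them in the endoplasmic reticulum and is itself a target. SREBF2 had log2 changes of -0.34 (limma, adjusted p = 0.000476) in CAOV3 and -0.39 (adjusted p = 0.000521) in TOV21G, and SREBF1 of -0.32 (adjusted p = 0.00125) and -0.27 (adjusted p = 0.0135). INSIG1 held 1444, 1400 and 1536 normalised reads in CAOV3 controls and 839, 785 and 779 with ascites, and 1350, 1274 and 1334 and then 890, 934 and 879 in TOV21G. Its log2 change was -0.87 (limma, adjusted p = 8.27e-07) and -0.55 (adjusted p = 0.000199), estimates larger than those of any of the 9 enzymes; that difference was not tested.

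The listed genes that use the products of the arm were not called, beside a background of 1.73% of genes tested in CAOV3 and 0.409% in TOV21G. Of 15 genes that turn isoprenoids into dolichol, coenzyme Q and prenylated proteins, limma, edgeR, DESeq2 and voom called 0 in either line. Of 7 targets and receptors of the LXR sterol sensors, the same 4 tools also called 0 in both lines.

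The genes whose pattern over the 12 libraries lay closest to the mean of the 9 enzymes were sought among 10276 genes with a mean of at least 100 in each line, by the root mean square difference in log2 value after centring each line. The 5 closest were DKK1, a Wnt inhibitor (0.039), MINDY1, a deubiquitinase (0.0411), ACSL3, which activates fatty acids (0.0414), MXD4, a MYC-network repressor (0.0416), and SREBF1 (0.0421), against a median of 0.139 over all candidates. By limma ACSL3 and SREBF1 were called lower in both lines, DKK1 and MXD4 in CAOV3 alone, and MINDY1 in neither (adjusted p = 0.102 and 0.427). The 5 were picked from these same libraries for closeness to a mean that was lower with ascites. Their direction follows from that choice, and these calls are no separate evidence. Of the 9 themselves, ACAT2 was nearest to their mean (0.0277) and PMVK farthest (0.166). MVK (0.162) also lay beyond the candidate median of 0.139, and IDI1 and GGPS1 (both 0.137) lay close to it. Each of the 9 forms part of that mean, so their own distances are smaller than an outside gene's would be.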

How the data were processed

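Total RNA of 12 libraries (4 groups of 3) was sequenced. The authors deposited 1 normalised read count per gene and library, a signal made by dividing reads by a size factor; per the submitters' processing notes Trim Galore, cutadapt, STAR, HTSeq and DESeq were used, with versions, build and strand not given in the sources used here. All values (100%) were whole multiples of 1 step per library within 0.001 reads, so reads were recovered for the count models. Ensembl identifiers were matched to symbols in a gene table (19087 of 19251) or GENCODE (136). Genes with a value of at least 10 in at least 3 libraries were tested with limma 3.58.1 (R 4.3.3; lmFit, eBayes with trend) on log2(value + 1) over all 12 libraries and 4 group means, two-sided, adjusted by Benjamini-Hochberg over 17616 genes and called under 0.05. The log2(value + 1) scale understates changes of low genes. Alternatives were pseudocounts of 0.5 and 5, no filter, edgeR 4.0.16, DESeq2 1.42.0 and voom on recovered reads, each line alone, a replicate block, a length and GC trend, and each library left out; 2 more were chosen after seeing the data. The fitting was tested on simulated data. The members and gene lists were chosen with earlier results of these data known. Text names all 9 members, list genes called in both lines, otherwise up to 3 called genes per list and line, and the 5 genes of nearest pattern; the genes that overlap a member were added after the values were seen. Promoters came from RefSeq (GRCh38.p14). Replicates differed beyond sampling noise (chi-square per degree of freedom 1.81 to 8.38 between CAOV3 replicates and 3.89 to 22.6 between TOV21G replicates). A further gene list is not reported here.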

Additional observations from a re-analysis of the deposited data

How the results depend on the processing

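No called enzyme changed direction under any alternative; the estimates of PMVK and GGPS1 in TOV21G, not called, changed sign in some fits. The number of enzymes lower with ascites was 5 in CAOV3 and 4 in TOV21G; with TOV21G fitted alone it was 0 in TOV21G. With 1 library left out it ranged from 3 to 5 in CAOV3 (3 without CAOV3 control 1, control 3, ascites 1 or ascites 2) and from 2 to 4 in TOV21G (2 without TOV21G control 3). The replicate block gave 3 in CAOV3 and 1 in TOV21G. No pairing by number was seen: same-numbered control and ascites libraries correlated at -0.0689, 0.0603 and 0.0136 in CAOV3 and at -0.165, -0.417 and 0.0726 in TOV21G. These are departures from means of 3 libraries, so they cannot show whether the libraries were paired. Over all genes, 193 were lower and 112 higher in CAOV3. The counts were 309 and 202 with edgeR, 319 and 188 with DESeq2, 342 and 242 with voom, 67 and 49 with the block, and 172 and 193 with the length and GC trend removed. In TOV21G, 47 were lower and 25 higher, against 63 and 51 with edgeR, 98 and 53 with DESeq2, 71 and 56 with voom, 2 and 6 alone and 8 and 5 with the block. For the difference between lines, 54 and 42 became 76 and 72 with edgeR, 122 and 88 with DESeq2, 76 and 59 with voom, 85 and 48 with the trend removed and 8 and 1 with the block. With 1 library left out, 97 to 217 genes were lower in CAOV3 and 16 to 89 in TOV21G. The cause of these shifts was not tested. The 2 enzymes with the widest intervals, GGPS1 (137 to 348 reads per library) and MVK (185 to 528), also had the fewest reads; how much of the width depth sets was not tested.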

Other observations

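The log2 change of INSIG1 was less negative in TOV21G than in CAOV3 by 0.32, which did not pass with limma (adjusted p = 0.0779) and passed with edgeR (0.015), DESeq2 (0.0261) and voom (0.0192), so the call depends on the model.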
